A study of Mus musculus with 2 samples.

Results

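The Fc gamma receptors bind the constant part of immunoglobulin G (IgG) and tie antibodies to the cells that clear what the antibodies have coated. The 6 genes described here are the mouse receptor genes Fcgr1, Fcgr2b, Fcgr3 and Fcgr4, the common signalling chain Fcer1g, and Fcgrt, which encodes the neonatal Fc receptor. They were taken by gene symbol from the 32285 genes of the count tables, and all 6 were found. Their unique molecular identifiers (UMIs, 1 per captured RNA molecule) were summed over the cells of each library and each cell type named from marker genes.

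The study profiled blood neutrophils by 10x single-cell RNA sequencing in 2 libraries, 1 from WT mice and 1 from APP/PS1 mice, all female and 7 months old, with cells of 3 mice pooled. APP/PS1 mice carry mutant human transgenes that drive amyloid deposition in the brain, and the labels give no treatment for either genotype. Red cells were lysed and neutrophils enriched from the blood with a commercial kit. The mice of a genotype cannot be told apart in the counts, so there was 1 sample per genotype, no replicate error and no test. The intervals given are exact 95% intervals that cover counting error only, and a difference between libraries may be a difference between pools of mice or preparations.

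Fcgr1, Fcgr3 and Fcgr4 encode activating receptors. Each pairs with the small Fcer1g chain, which carries an immunoreceptor tyrosine-based activation motif. When antibody clusters the receptors, Src family kinases phosphorylate the tyrosines of that motif, Syk docks there, and uptake, oxidant release and degranulation can follow. Fcgr2b encodes the inhibitory receptor, whose own tail carries an inhibition motif that recruits the lipid phosphatase encoded by Inpp5d. Fcgrt differs from the others in that it works inside the cell, where with beta-2 microglobulin it returns IgG to the surface and spares it from degradation.

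In mm10, Fcgr2b (170958617 to 170976547, minus strand), Fcgr4 (171018920 to 171029761, plus strand), Fcgr3 (171051174 to 171064935, minus strand) and Fcer1g (171229572 to 171234365, minus strand) lie within 276 kb of chromosome 1. Fcgr1 lies on chromosome 3 from 96282909 to 96293969 and Fcgrt on chromosome 7 from 45092990 to 45103851, both on the minus strand (GENCODE M21). The coding bases of the motifs that set the chain apart from the inhibitory receptor are shown first, because they are the sites through which the chain and the inhibitory receptor are known to signal. Capitals mark the codons of the tyrosines and of the leucines that follow them, read 5′ to 3′ on the coding strand.
Fcer1g activation motif: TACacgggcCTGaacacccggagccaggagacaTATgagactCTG
Fcgr2b inhibition motif: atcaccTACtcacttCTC
The Fcer1g bases encode codons 65 to 79 of 86 and fall between 171229889 and 171230072 of chromosome 1, with an intron between them. The Fcgr2b bases encode codons 317 to 322 of 340, at 170961071 to 170961088 of chromosome 1 in an exon near the end of the gene. A search of the first listed coding transcript of each gene for paired tyrosine and leucine (or isoleucine) codons at the spacing of an activation motif found 1 match, in Fcer1g, and 0 in the other 5 genes. The shorter pattern of an inhibition motif did not separate the genes, with 3 matches in Fcgr1, 1 each in Fcgr2b, Fcgr4, Fcer1g and Fcgrt, and 0 in Fcgr3.

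Fcgr2b and Fcgr3 are close copies, with 86.5% identity over 785 aligned coding bases and a shared run of 129 bases. The libraries were read from the 3′ ends of transcripts, and there the longest run that any of the 4 receptors shared with another in its last 500 bases was 13 bases. Fcgr2b and Fcgrt are overlapped on the other strand by the antisense genes Gm38204 and Gm45669. The strand setting of the counting is not given in the sources used here, so reads of those pairs may not be fully separated.

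After filtering, 14564 WT cells and 15208 APP/PS1 cells remained, with 64548783 and 60560111 UMIs. Neutrophils made up 52.0% of kept cells in WT and 63.0% in APP/PS1, although both libraries were labelled neutrophil. The other named cells were classical and nonclassical monocytes, cells like dendritic cells, NK cells, T cells, B cells, basophils, erythroid cells and platelets, the last with 16 cells in each library. All 8 neutrophil markers were detected in every one of these types, with a summed level of 153919 to 181783 UMIs per 1000000 UMIs (CPM) in neutrophils and 3003 to 51566 CPM elsewhere. The dendritic-like cells also carried classical monocyte markers at 2727 to 2857 CPM, against 2702 to 2801 CPM of dendritic cell markers. They carried nonclassical monocyte markers at 963 (WT) and 1131 (APP/PS1) CPM, against 235 CPM and 206 CPM in classical monocytes. The dendritic cell markers stood higher in B cells, at 4772 CPM and 4808 CPM, so their sum does not mark dendritic-like cells alone. The part of monocyte RNA in the levels of dendritic-like cells was not tested. T cells carried NK cell markers at 2454 CPM (WT) and 3702 CPM (APP/PS1), against 2602 CPM and 2737 CPM of their own. The part of NK cell RNA in the T cell levels given below was not tested. Among kept cells 63 barcodes occurred in both libraries.

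T cells, which are not known for Fc gamma receptors, served as the measure of free RNA and doublets. In T cells Fcgr3 stood at 36.4 (WT) and 40.4 (APP/PS1) CPM, with a UMI in 10.4% and 10.7% of cells at medians of 4131 and 3478 UMIs per cell. Fcgr4 stood there at 24.3 CPM and 13.9 CPM, Fcgr2b at 5.20 CPM and 9.61 CPM, and Fcgr1 at 1.73 CPM and 2.40 CPM. Values of the other types near these cannot be read as expression. Erythroid cells had more, with Fcgr3 at 108 CPM (WT) and 157 CPM (APP/PS1) and Fcer1g at 712 CPM and 1013 CPM. Of the erythroid cells 38.0% and 51.8% were called doublets. The source of these UMIs was not tested, so T cell values cannot be taken as an upper limit.

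Each gene had its own order of cell types, and the plot of levels shows every named type except erythroid cells and platelets.

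**Figure D1:**
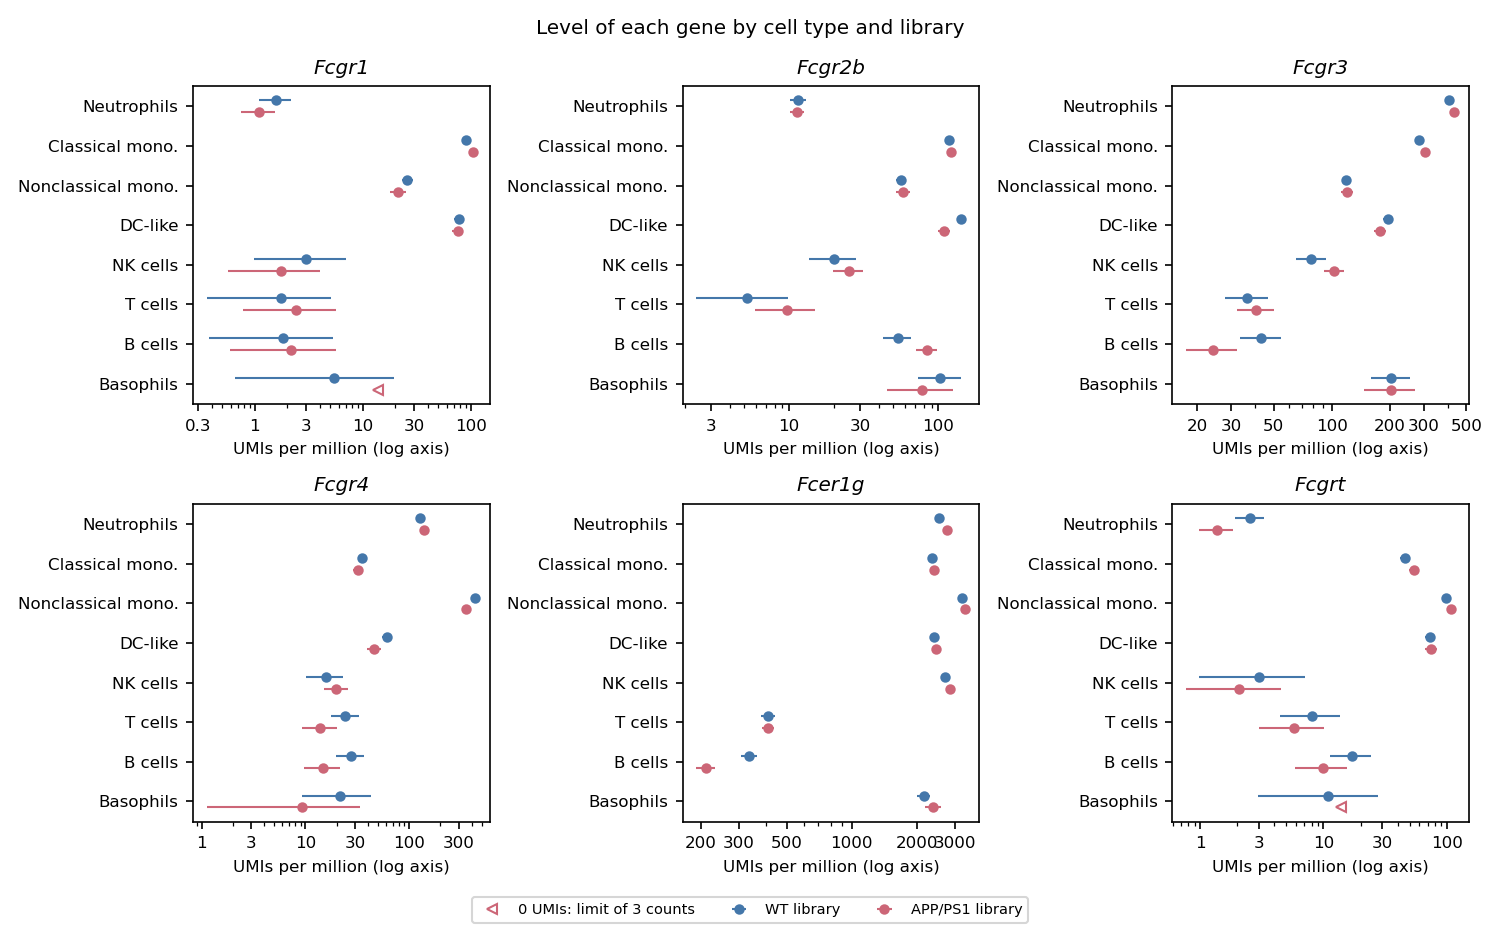
Level of each gene in CPM (log axis) in 8 cell types, with points for the 2 libraries and bars for exact 95% Poisson intervals; open arrows mark 0 UMIs at the limit that 3 counts allow. Fcgr3 was highest in neutrophils, Fcgr4, Fcer1g and Fcgrt in nonclassical monocytes, and Fcgr1 in classical monocytes in both libraries.

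Fcgr3, the low-affinity activating receptor and the mouse gene of CD16, was highest in neutrophils. Its level there was 406 CPM (WT, 8828 UMIs) and 431 CPM (APP/PS1, 12691 UMIs). Classical monocytes followed at 285 CPM and 305 CPM, so neutrophils stood 1.43-fold higher in WT (1.37 to 1.48) and 1.41-fold higher in APP/PS1 (1.36 to 1.47). Dendritic-like cells had 195 CPM and 179 CPM, and the intervals of basophils and dendritic-like cells overlapped in both libraries. Nonclassical monocytes were lower, at 119 CPM and 121 CPM. The interval of erythroid cells overlapped theirs in WT and lay above it in APP/PS1. A UMI of Fcgr3 was found in 63.4% of WT neutrophils and 68.0% of APP/PS1 neutrophils. In classical monocytes the shares were 83.5% and 85.0%, but those cells held a median of 8247 and 7773 UMIs against 2553 and 2703 in neutrophils. With each cell thinned to 1000 UMIs the order was the other way, with 32.9% and 34.8% of neutrophils against 24.8% and 24.8% of classical monocytes.

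Fcgr3 is also the Fc receptor by which NK cells kill antibody-coated targets. NK cells had 78.2 (WT) and 103 (APP/PS1) CPM, 2.15-fold (1.58 to 2.95) and 2.55-fold (1.997 to 3.29) the T cell level. Values without called doublets come from clustering and naming the remaining cells again, so cells could also change type. Without called doublets NK cells had 57.5 CPM and 65.6 CPM, 3.06-fold (1.96 to 4.92) and 1.98-fold (1.46 to 2.69) the T cell level. Neutrophil markers summed to 19347 CPM and 17853 CPM in NK cells, and their part in the Fcgr3 level was not tested. Erythroid cells stood at 108 CPM and 157 CPM of Fcgr3, no lower than NK cells in either library.

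Fcgr4, an activating receptor for some IgG subclasses, was highest in nonclassical monocytes. Nonclassical monocytes, the patrolling monocytes of blood, had 430 CPM (WT, 4579 UMIs) and 357 CPM (APP/PS1, 2265 UMIs). Neutrophils had 127 CPM and 139 CPM. Classical monocytes had 34.8 CPM and 32.0 CPM, so that nonclassical monocytes stood 12.3-fold higher in WT (11.3 to 13.5) and 11.2-fold higher in APP/PS1 (9.91 to 12.6). Without called doublets, which made up 17.0% and 8.96% of classical monocytes, and with the rest clustered again, the folds were 15.7 and 13.4. A UMI of Fcgr4 was found in 76.4% and 70.6% of nonclassical monocytes, against 20.4% and 18.2% of classical monocytes. The intervals of classical monocytes overlapped those of T cells, B cells, basophils and erythroid cells in WT, and those of basophils and erythroid cells in APP/PS1. NK cells, with 15.6 CPM and 19.8 CPM, lay within the range of the T cell values.

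The balance of these receptors differed between the monocyte classes. For every Fcgr3 UMI there were 3.61 Fcgr4 UMIs in nonclassical monocytes of WT and 2.96 in APP/PS1, against 0.122 and 0.105 in classical monocytes and 0.312 and 0.322 in neutrophils. These ratios compare cell types and not the amounts of the genes, since capture may differ between transcripts.

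Fcgr1 encodes the high-affinity receptor, which can bind single IgG molecules. Its level was 90.5 CPM (WT) and 106 CPM (APP/PS1) in classical monocytes, 77.6 CPM and 76.1 CPM in dendritic-like cells and 26.0 CPM and 21.3 CPM in nonclassical monocytes. Neutrophils had 34 UMIs and 32 UMIs in all, or 1.56 CPM and 1.09 CPM, at or below the T cell values. A share of 0.449% and 0.313% of neutrophils held a UMI of Fcgr1, against 0.777% and 0.973% of T cells. NK cells, B cells, T cells and neutrophils could not be ordered, since the intervals of neighbours overlapped in both libraries.

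Fcer1g, the common chain, lay between 2361 and 3337 CPM in neutrophils, monocytes, dendritic-like cells and NK cells, and was much lower in T and B cells. Its level was 3237 (WT) and 3337 (APP/PS1) CPM in nonclassical monocytes, 2710 CPM and 2863 CPM in NK cells, and 2551 CPM and 2757 CPM in neutrophils. Dendritic-like cells (2421 CPM and 2463 CPM) and classical monocytes (2361 CPM and 2403 CPM) overlapped in both libraries. T cells had 410 CPM and 409 CPM and B cells 335 CPM and 211 CPM. A UMI of the chain was found in 99.4% of WT and 99.6% of APP/PS1 neutrophils, against 42.2% and 36.8% of T cells.

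Set against the activating receptors, chain UMIs were most numerous in NK cells. There were 4.77 Fcer1g UMIs per UMI of Fcgr1, Fcgr3 and Fcgr4 in WT neutrophils and 4.83 in APP/PS1 neutrophils, and 5.76 and 5.43 in classical monocytes. NK cells had 28.0 (23.9 to 32.9) and 23.0 (20.7 to 25.6), and 37.2 and 39.7 without called doublets. The chain serves other receptors as well, among them Ncr1 in NK cells and the Fc epsilon receptor of basophils. Basophils had 9.38 in WT, from 85 receptor UMIs.

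Fcgr2b, the inhibitory receptor, was low in neutrophils, where Fcgr3 was highest. Neutrophils had 11.5 CPM (WT, 250 UMIs) and 11.3 CPM (APP/PS1, 332 UMIs), against 118 CPM and 121 CPM in classical monocytes. The neutrophil level was 0.0975 times that of classical monocytes in WT (0.0851 to 0.111) and 0.0929 times in APP/PS1 (0.0820 to 0.105). In APP/PS1 the intervals of neutrophils and T cells overlapped, so that in that library a neutrophil level above free RNA was not detectable. Dendritic-like cells had 142 CPM and 109 CPM, basophils 103 CPM and 78.2 CPM, and nonclassical monocytes 56.4 CPM and 58.1 CPM.

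B cells rely on Fcgr2b as their Fc gamma receptor, which dampens signals of the B cell receptor. They had 53.3 (WT) and 83.7 (APP/PS1) CPM, 10.2-fold (5.16 to 23.1) and 8.70-fold (5.44 to 14.6) the T cell level. In the same cells Fcgr3 (43.0 CPM and 24.1 CPM) and Fcgr4 (27.3 CPM and 14.8 CPM) were not above the T cell values beyond counting error. Without called doublets B cells kept 54.1 CPM and 84.7 CPM of Fcgr2b.

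The count of activating receptor UMIs per Fcgr2b UMI put the cell types far apart. Neutrophils had 46.5 (41.0 to 52.9) in WT and 50.6 (45.4 to 56.6) in APP/PS1. Nonclassical monocytes had 10.2 (9.37 to 11.1) and 8.58 (7.70 to 9.58), and classical monocytes 3.48 (3.30 to 3.67) and 3.65 (3.42 to 3.89). B cells had the fewest, with 1.35 (1.02 to 1.80) and 0.490 (0.367 to 0.650), and 0.712 and 0.331 without called doublets. The intervals of the libraries overlapped in neutrophils and in both monocyte classes. The neutrophil values rest on an Fcgr2b level near that of T cells.

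**Figure D2:**
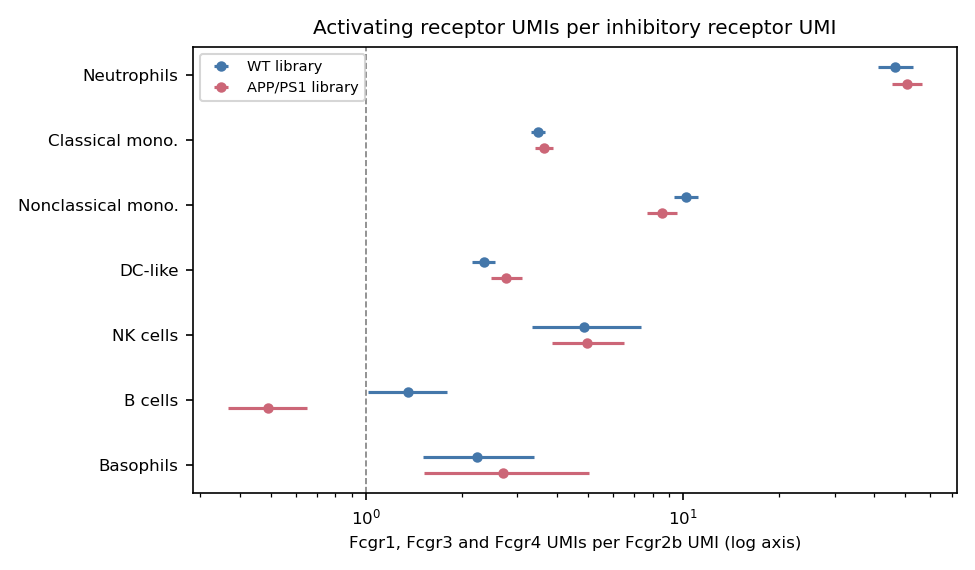
UMIs of Fcgr1, Fcgr3 and Fcgr4 together per UMI of Fcgr2b (log axis) in 7 cell types, with points for the 2 libraries, bars for exact 95% intervals and a dashed line at 1. Neutrophils lie at 46.5 and 50.6, to the right of every other type, and APP/PS1 B cells at 0.490 lie below 1. The activating receptor levels of B cells were not above those of T cells beyond counting error.

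Fcgrt, the neonatal receptor, followed the monocyte line. Its level was 99.3 (WT) and 109 (APP/PS1) CPM in nonclassical monocytes, 73.2 CPM and 75.1 CPM in dendritic-like cells and 45.5 CPM and 54.2 CPM in classical monocytes. Neutrophils had 2.53 CPM and 1.36 CPM, from 55 and 40 UMIs, which is below the T cell values of 8.09 CPM and 5.77 CPM.

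The library totals of the genes came from different cells. Neutrophils gave 52.1% (WT) and 68.7% (APP/PS1) of all Fcgr3 UMIs, and 28.7% and 52.5% of all Fcgr4 UMIs. Classical monocytes gave 61.8% and 65.6% of Fcgr1. These shares move with the number of cells of each type, and neutrophils were more frequent in the APP/PS1 library.

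The comparison that the study was built for sets APP/PS1 against WT. In neutrophils 4 of the 6 genes reached 200 UMIs in a library, and 0 of these 4 passed a log2 ratio of 0.5 in either direction. Of all 6146 genes with 200 UMIs, 5.87% did. The log2 ratio of APP/PS1 to WT was 0.09 for Fcgr3 (0.05 to 0.13), 0.13 for Fcgr4 (0.06 to 0.20), 0.11 for Fcer1g (0.10 to 0.13) and -0.03 for Fcgr2b (-0.27 to 0.21). The median of all genes was 0.06. With library sizes by TMM the ratios were 0.04 for Fcgr3 and 0.07 for Fcer1g. Fcgr1 and Fcgrt were below the minimum. The level of Fcgr1 was at or below that of T cells. Fcgrt was at -0.90 (-1.52 to -0.28), from levels that were 0.313 times (0.171 to 0.609) and 0.236 times (0.121 to 0.493) those of T cells.

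In classical monocytes all 6 genes were measured and 0 passed 0.5, where 3.33% of 6481 genes did. The highest ratios were those of Fcgrt at 0.25 (0.09 to 0.42) and Fcgr1 at 0.22 (0.11 to 0.34). With no percentile limits on the cells Fcgr1 was at 0.10, and its interval then included 0. Without the small cluster led by interferon-induced genes, described below, Fcgr1 was at 0.15 (0.03 to 0.28). In nonclassical monocytes all 6 were measured and 0 passed, where 2.73% of 5566 genes did. Fcgr4 was lower in APP/PS1 there, at -0.27 (-0.34 to -0.19), and Fcgr1 was at -0.29 (-0.60 to 0.01).

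**Figure D3:**
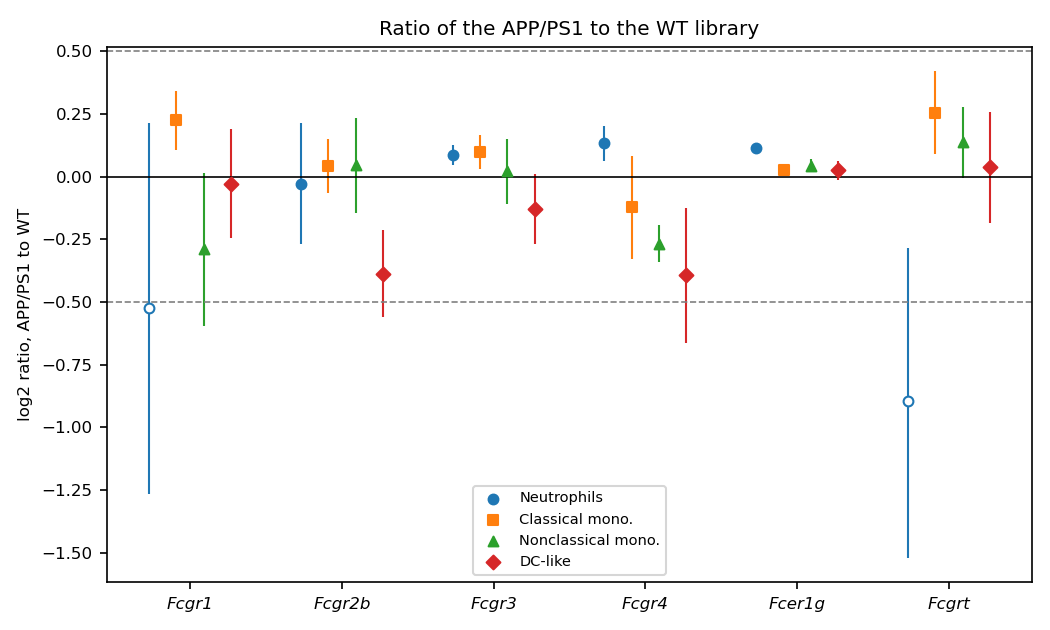
Log2 ratio of the APP/PS1 to the WT library for each gene in neutrophils, classical and nonclassical monocytes and dendritic-like cells, with exact 95% intervals for counting error; open symbols had under 200 UMIs in both libraries and dashed lines mark 0.5 in each direction. The filled points lie between -0.39 and 0.25.

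In dendritic-like cells all 6 genes were measured and 0 passed 0.5, where 3.34% of genes did. Fcgr2b was at -0.39 (-0.56 to -0.21) and Fcgr4 at -0.39 (-0.66 to -0.13), while Fcer1g was at 0.02. In NK cells 2 genes were measured and 0 passed, where 2.14% of genes did, with Fcgr3 at 0.40 (0.10 to 0.71) and Fcer1g at 0.08. Without called doublets Fcgr3 in NK cells was at 0.19, with an interval that included 0. In T cells only Fcer1g was measured, at -0.0029, where 5.2% of genes passed.

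In B cells only Fcer1g was measured and it passed, at -0.67 (-0.86 to -0.48), where 6.96% of genes did. The summed neutrophil markers moved the same way, from 12892 CPM in WT B cells to 6536 CPM in APP/PS1 B cells, and 11.5% against 5.54% of the cells were called doublets. With called doublets removed and the rest clustered and named again, the ratio of Fcer1g was -0.11 (-0.39 to 0.17). Fcgr2b in B cells had 88 and 153 UMIs, below the minimum, with a log2 ratio of 0.65 (0.26 to 1.05) that was also 0.65 without called doublets. In the 62 WT and 55 APP/PS1 B cells with no UMI of a neutrophil or monocyte marker other than S100a8 and S100a9 it was 0.38, and the interval (-0.60 to 1.40) included 0.

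Among the 7570 WT and 9578 APP/PS1 neutrophils 6 clusters were told apart, with the 6 genes kept out of the features. Fcgr3, Fcgr4 and the chain were lowest in the cluster of 374 cells led by the secondary granule genes Camp, Ngp and Ltf, which are made in immature neutrophils. Fcgr1 had 1 UMI in it and could not be placed. Over both libraries that cluster had 322 CPM of Fcgr3, against 401 to 447 CPM in the other clusters. It had 87.2 CPM of Fcgr4, against 115 to 181 CPM, and 2023 CPM of Fcer1g, against 2535 to 2970 CPM. In WT its Fcgr4 interval (64.6 to 105 CPM) overlapped those of the clusters led by Retnlg and stefin A genes and by platelet genes. Its Fcgr2b, at 16.3 CPM, had an interval of 11.4 to 22.5 CPM that overlapped those of the other clusters except the one led by Retnlg and stefin A genes. Its cells held a median of 5814 UMIs, against 2247 to 4760 in the others, and the part of depth was not tested.

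Fcgr4 was highest in the cluster led by interferon-induced genes such as Ifit3 and Ifit1. It stood there at 165 (WT) and 191 (APP/PS1) CPM, against 108 CPM and 122 CPM in the cluster led by Retnlg and stefin A genes. In WT its interval (147 to 184 CPM) overlapped that of the cluster led by Clec4n and Dusp2 (136 to 161 CPM). It also overlapped that of the cluster led by Rgs1, Neat1 and Chd7 (129 to 151 CPM). In APP/PS1 it overlapped no other cluster. Without integration of the libraries the interferon-led cluster had 154 CPM over both, next to 153 CPM in the cluster led by Clec4n and Dusp2, so its place at the top rests on the integration. Fcer1g was highest in the cluster led by Clec4n and Dusp2, at 2843 CPM and 3035 CPM. That cluster held 23.8% of WT neutrophils and 33.5% of APP/PS1 neutrophils.

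**Figure D4:**
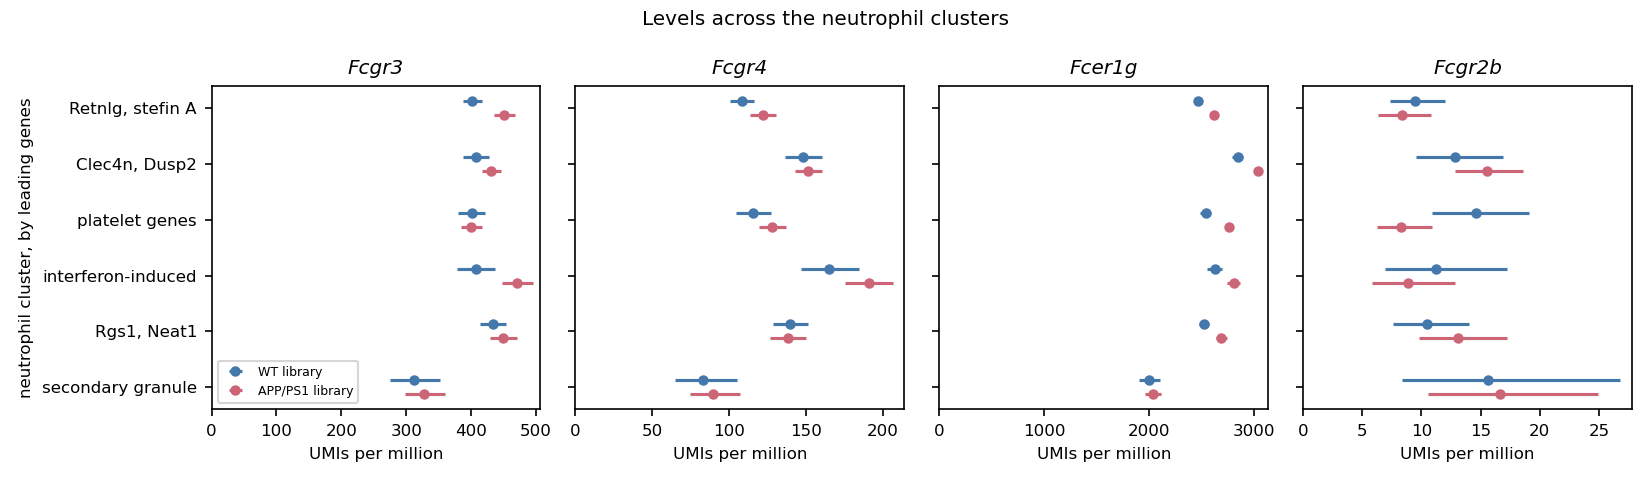
Levels of Fcgr3, Fcgr4, Fcer1g and Fcgr2b in CPM in the 6 neutrophil clusters, named by their leading genes, with points for the 2 libraries and bars for exact 95% Poisson intervals. The secondary granule cluster is lowest for Fcgr3, Fcgr4 and Fcer1g in both libraries. Its Fcgr4 interval overlaps those of other clusters in WT. The interferon-led cluster is highest for Fcgr4, with an interval that overlaps those of other clusters in WT.

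Classical monocytes also held a small cluster led by interferon-induced genes, with 44 cells in WT and 55 in APP/PS1. These were 2.40% and 4.29% of the classical monocytes. Fcgr1 stood at 358 CPM in its WT cells and 382 CPM in its APP/PS1 cells, against 84.0 CPM and 93.4 CPM in the other classical monocytes. The log2 ratio of the clusters was 2.09 for WT (1.82 to 2.35) and 2.03 for APP/PS1 (1.78 to 2.28). Fcgr4 was higher in it too, by a log2 ratio of 1.09 (0.46 to 1.66) and 1.503 (0.95 to 2.01). Fcgrt was lower in it in WT, at -1.25 (-2.57 to -0.20), from 7 UMIs, and was at -0.18 (-0.91 to 0.46) in APP/PS1. Fcer1g was at 0.14 (0.05 to 0.24) in WT and -0.08 (-0.18 to 0.01) in APP/PS1. Fcgr3 and Fcgr2b had intervals that included 0 in both libraries. These cells were grouped by their expression, so the values are a description.

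**Figure D5:**
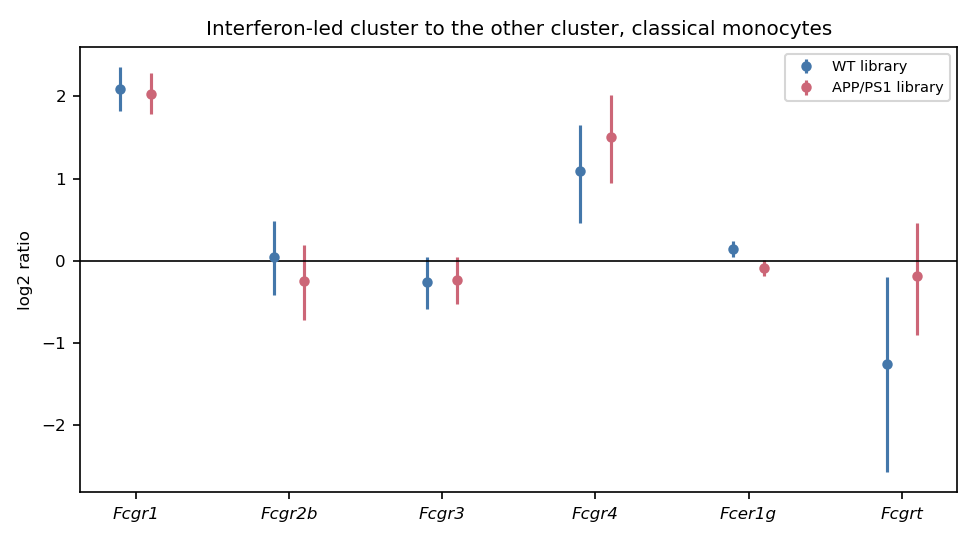
Log2 ratio of the interferon-led cluster to the other classical monocytes for each gene, with points for the 2 libraries and bars for exact 95% intervals. Fcgr1 lies at 2.09 and 2.03 and Fcgr4 at 1.09 and 1.503, above the other 4 genes.

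Interferons act on genes through 2 well known kinds of site, the gamma-activated site (searched as TTCNNNGAA) and the interferon-stimulated response element (searched as GAAA, any 2 bases and GAAA again). Both strands of the RefSeq promoter windows, 250 bases before to 50 bases after the start, were searched for both, and for the PU.1 letters GAGGAA of myeloid genes. The windows of the 2 genes that were higher in the interferon-led cells are shown on their coding strand (GRCm38.p6), with a gamma-activated site or response element in capitals.
Fcgr1, chr3:96293920-96294219, minus strand: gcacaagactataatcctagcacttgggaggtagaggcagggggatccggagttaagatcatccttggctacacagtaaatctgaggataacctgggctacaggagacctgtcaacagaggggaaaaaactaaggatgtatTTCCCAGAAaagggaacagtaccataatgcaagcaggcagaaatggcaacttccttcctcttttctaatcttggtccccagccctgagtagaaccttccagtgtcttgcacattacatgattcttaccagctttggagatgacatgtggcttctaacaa
Fcgr4, chr1:171018676-171018975, plus strand: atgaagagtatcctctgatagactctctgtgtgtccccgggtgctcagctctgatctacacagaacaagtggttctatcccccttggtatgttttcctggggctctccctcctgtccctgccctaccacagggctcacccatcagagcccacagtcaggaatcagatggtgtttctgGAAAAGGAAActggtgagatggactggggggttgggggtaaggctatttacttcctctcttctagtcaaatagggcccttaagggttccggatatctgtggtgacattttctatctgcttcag
Fcgr1 held 1 gamma-activated site match, and 8.30% of all 32851 promoter windows held at least 1. Fcgr4 held 1 response element match, as 3.44% of windows did. The windows of Fcgr2b, Fcgr3, Fcer1g and Fcgrt held neither. Those of Fcgr3 (171059345 to 171059653) and Fcgr2b (170976022 to 170976321) lie inside the gene spans given above, which reach 171064935 and 170976547. Sequence at the upstream ends of those 2 spans was not searched. GAGGAA was found in the windows of Fcgr1, Fcgr3 and Fcgr4, and in 28.3% of all windows. A match is a run of letters and not a measured binding site.

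The genes that act with the receptors were taken from fixed lists. Of 25 genes of activating signalling, 22 were measured in neutrophils, where 1 was past 0.5 upward and 0 downward, beside 5.87% of all genes past it in either direction. That gene was Bank1, an adaptor better known from B cells, with 10.6 (WT) and 15.7 (APP/PS1) CPM. The median log2 ratio of the list was 0.03, beside 0.06 for all genes. Syk, the kinase that docks on the chain, was at 404 CPM and 329 CPM, a log2 ratio of -0.30 (-0.34 to -0.25). In classical and nonclassical monocytes 23 genes of the list were measured and 0 passed, with medians of -0.10 and -0.01, beside -0.05 and -0.02 for all genes.

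Of 16 genes of inhibitory signalling, 13 were measured in neutrophils and 0 passed, where 5.87% of all genes did. Their median was 0.02, beside 0.06 for all genes. In nonclassical monocytes 14 were measured and 2 passed, both downward, where 2.73% of all genes passed and 112 of those 152 genes were downward. Inpp5d, the phosphatase recruited by Fcgr2b, was at 246 (WT) and 157 (APP/PS1) CPM, a log2 ratio of -0.64 (-0.75 to -0.54). Cd300lf, an inhibitory receptor of myeloid cells, was at -0.53. Cd300lf was also the 1 of 15 measured genes that passed in classical monocytes, at -0.63, where 3.33% of all genes passed. The list medians there were -0.03 in nonclassical and -0.06 in classical monocytes, beside -0.02 and -0.05 for all genes.

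Of 12 other receptors and chains that signal through activation motifs, 6 were measured in neutrophils and 0 passed, where 5.87% of all genes did. Their median was 0.18, beside 0.06 for all genes. Clec4n, a receptor for fungal sugars that uses the Fcer1g chain, was at 0.49 in neutrophils. In nonclassical monocytes Clec4n was at -0.70, the only 1 of 5 measured that passed, where 2.73% of all genes did. In classical monocytes 0 of 5 passed, where 3.33% of all genes did. The list medians were -0.10 and -0.21, beside -0.02 and -0.05 for all genes. Of 11 other Fc receptors and genes of IgG handling, 2 were measured in neutrophils (Fcrl1 and B2m) and B2m alone in both monocyte classes. Of these 0 passed, where 5.87%, 3.33% and 2.73% of all genes did in neutrophils, classical and nonclassical monocytes. The medians were 0.02, 0.08 and -0.05, beside 0.06, -0.05 and -0.02 for all genes. B2m, the partner of Fcgrt, was at 0.11, 0.08 and -0.05 in neutrophils, classical and nonclassical monocytes.

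Likeness of profile was measured as Pearson's r of log2(CPM + 1) over 17 combinations of cell type and library with at least 50 cells, among 10526 genes. The combinations share libraries and free RNA, so r is a description. Fcgr3 was most like Arl11 (0.975), Pgd (0.959) and Fes (0.959), and Fcgr4 like Rpl3l (0.966), Sec14l1 (0.937) and Cd300c2 (0.936). Fcer1g was most like Itgam (0.972), the integrin chain of myeloid and NK cells, then Synj1 (0.956) and Apobr (0.949). Fcgr1 was most like Ppfia4 (0.963), Ifi211 (0.961) and Phf11d (0.959). Fcgr2b was most like Renbp (0.951), Tspan17 (0.941) and Ndst2 (0.933), and Fcgrt like Klf4 (0.980), Zfyve9 (0.980) and Scarb1 (0.979). Among the 6 genes themselves the most alike pairs were Fcgr2b and Fcgrt (0.810), Fcgr1 and Fcgrt (0.807), and Fcgr3 and Fcer1g (0.791).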

How the data were processed

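2 droplet libraries (10x 3′ kit, version 3.0) were analysed. The authors deposited raw UMI counts with no normalization, and the submitters' processing notes name Cell Ranger 5.0.0 and mm10. In each library, cells were kept between percentiles 5 and 95 of detected genes and of UMIs, with at most 10% mitochondrial UMIs. Kept cells were clustered with Seurat 5.3.0 (2000 variable features without the 6 genes, 15 principal components, resolution 0.8) and named from fixed markers, by score limits set after the clusters were seen. Clusters with over 50% doublets or mixed markers stayed unnamed. Neutrophils were clustered again with anchors between libraries, leaving out genes that differed by over 0.5 log2. Scrublet (scanpy 1.11.5) called doublets at the WT threshold of 0.217 in both libraries, because the threshold it found for APP/PS1 alone was 0.728. Doublets stayed in the main values. For values without them, the remaining cells were clustered and named again. Summed counts were divided by all UMIs of the cells, and exact intervals were checked on simulated counts. The 6 genes, lists and alternatives were chosen with earlier results of these data known. Named genes were the 6 genes in all types, those of the 4 lists past 0.5 or tied to a role, and the 3 most alike genes. edgeR 4.0.16 gave TMM library sizes. Protein sequences were not used here.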

Additional observations from a re-analysis of the deposited data

Results flagged for a closer look

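The ratio of Fcgr4 between libraries went in opposite directions in the cell types that express it most. The log2 ratio of APP/PS1 to WT was 0.13 (0.06 to 0.20) in neutrophils, with 127 CPM and 139 CPM, and -0.27 (-0.34 to -0.19) in nonclassical monocytes, with 430 CPM and 357 CPM. Of the measured genes, 48.4% in neutrophils and 14.9% in nonclassical monocytes had a larger absolute ratio. The ratio of Fcgr4 stayed above 0 in neutrophils under 13 alternatives, from 0.09 to 0.16, and below 0 in nonclassical monocytes under 10, from -0.33 to -0.25. In neutrophils without markers of other types it was 0.12, and the interval (-0.05 to 0.29) included 0. The difference between the cell types was not tested, since there was 1 library per genotype, and neither value passed 0.5.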

How the results depend on the processing

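No library could be left out, because each genotype had 1, and no paired analysis was possible because no test was made. The cause of the moves below was not tested. In neutrophils, Fcgr3 was at 0.040 and Fcer1g at 0.066 with TMM library sizes, and at 0.042 and 0.068 with abundant gene classes out of the total, while Fcgr2b was at 0.28 with cells thinned to 1000 UMIs. In classical monocytes with no percentile limits, Fcgr1 was at 0.10, Fcgr2b at -0.0732 and Fcer1g at -0.0015. With thinning they had Fcgr1 at 0.44, Fcgr3 at 0.0158 and Fcer1g at -0.0163. Fcgr2b was at -0.0730 at a resolution of 0.2, Fcgr4 at 0.0872 with percentiles over both libraries, and Fcer1g at 0.0598 with TMM. In nonclassical monocytes Fcgr2b was at 0.27 with thinning. All of these are log2 ratios of APP/PS1 to WT. Without called doublets, classical monocytes had 3.05 activating UMIs per Fcgr2b UMI in WT and 3.39 in APP/PS1, and thinned nonclassical monocytes of WT had 11.3. Genes past 0.5 in neutrophils numbered 361, and 810 with a minimum of 50 UMIs. Leaving out shared barcodes, the platelet-led or interferon-led cells, or neutrophils with markers of other types moved no ratio outside its counting interval. The settings on shared barcodes, on interferon-led cells and on NK, B and dendritic-like cells were chosen after seeing the data. NK cells free of neutrophil and monocyte markers were not used, since 4 and 18 remained.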
